A study of Mus musculus with 37 samples.

Results

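Respiratory complex I, the NADH:ubiquinone oxidoreductase of the inner mitochondrial membrane, is the entry point of most electrons into the respiratory chain. Its subunits are encoded by the nuclear and by the mitochondrial genome. The subunits measured here were the rows of 2 count tables whose symbol is Ndufa, Ndufb, Ndufc, Ndufs or Ndufv with a number, Ndufab1, or begins with mt-Nd, and which held at least 100 counts over all 37 libraries. Of 57180 rows, 45 had such a symbol and 44 had enough counts, 38 of them nuclear and 6 mitochondrially encoded. The row left out was mt-Nd4l, with 95 counts.

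The libraries hold RNA bound to GFP-tagged ribosomes in the midbrain of mice, 1 library per mouse. NuTRAP is a transgene in the Rosa26 locus that encodes the ribosomal protein L10a fused to GFP, silent until Cre removes a stop cassette. In DAT;NuTRAP mice Cre follows the dopamine transporter gene Slc6a3 and marks dopamine neurons, and in VGAT;NuTRAP mice it follows the vesicular GABA transporter gene Slc32a1 and marks GABA neurons. All mice carried NuTRAP and a Cre allele, and the labels name no treatment beyond natural aging. The DAT;NuTRAP libraries came from 10 young mice (5 females, 5 males) and 9 old mice (4 females, 5 males), and the VGAT;NuTRAP libraries from 10 young mice (6 females, 4 males) and 8 old mice (5 females, 3 males). Young mice were 7 to 10.5 months old. Old mice were 21 months old, except VGAT;NuTRAP Old Female 1, which was 24 months old. Every library carried a batch label, first or second: 8 first-batch and 11 second-batch libraries in DAT;NuTRAP, and 6 and 12 in VGAT;NuTRAP. Whether a batch name refers to the same run in both models was not stated in the labels.

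Libraries held 13841253 to 38235015 counts. The label genes followed the models. Slc6a3 averaged 3233 ± 508 CPM (library-scaled counts, SD, n = 19) in DAT;NuTRAP and 808 ± 245 (n = 18) in VGAT;NuTRAP, while Gad1, an enzyme of GABA synthesis, averaged 133 ± 51.6 and 1824 ± 324. Slc32a1, which Cre follows in VGAT;NuTRAP, averaged 95.5 CPM in DAT;NuTRAP and 427 in VGAT;NuTRAP. Slc6a3 was well above 0 in VGAT;NuTRAP, and each pulldown held RNA of other cells. In such bulk samples, fewer cells of a type and less RNA per cell cannot be told apart.

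Complex I is L-shaped. Its N module, at the tip of the arm in the matrix, oxidises NADH, its Q module reduces ubiquinone, and its membrane arm pumps protons. The core subunits carry out catalysis, and the accessory subunits surround them and are needed for assembly and stability. The mitochondrially encoded core subunits lie in the membrane arm and are made by mitochondrial ribosomes, which do not contain L10a. Dopamine neurons of the midbrain are known for their sensitivity to complex I inhibitors. Ndufa4, which the symbols include, has been reassigned to complex IV and was described apart.

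Most subunits were well counted. Totals over the 37 libraries ran from 15160 for Ndufb8 to 298202 for Ndufa4 among nuclear genes, and mt-Nd3 had 432. Per kilobase of transcript, a level scaled for length, Ndufa4 stood highest in both models (591 ± 113 CPM per kb in DAT;NuTRAP, 654 ± 106 in VGAT;NuTRAP, SD), followed by Ndufa13 (426 ± 114 and 313 ± 40.3). In DAT;NuTRAP the SDs of Ndufa13 and mt-Nd1 (422 ± 267) overlapped widely. mt-Nd3 stood lowest in both (1.33 ± 1.27 in DAT;NuTRAP). Because mitochondrial ribosomes lack L10a, levels of mitochondrially encoded and nuclear subunits cannot be compared directly.

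The subunits are scattered over the nuclear genome, so stretches before 3 starts of the distal membrane arm, whose results differ, are printed as RefSeq starts (table build GRCm38.p6) matched exactly to GRCm39 and cut to bases outside any annotated exon. Capitals mark CCAAT boxes (CCAAT or ATTGG) and the nuclear receptor motif AAGGTCA. The stretches lie at chr6:39569299-39569489 (plus strand, Ndufb2), chr16:37474816-37474930 (minus strand, Ndufb4) and chr8:84293187-84293299 (plus strand, Ndufb7). In the 250 bases before these starts, Ndufb4 also held AAGGTCA and Ndufb7 the ETS site CCGGAAG, on either strand. Both lie outside the printed stretches.
Ndufb2: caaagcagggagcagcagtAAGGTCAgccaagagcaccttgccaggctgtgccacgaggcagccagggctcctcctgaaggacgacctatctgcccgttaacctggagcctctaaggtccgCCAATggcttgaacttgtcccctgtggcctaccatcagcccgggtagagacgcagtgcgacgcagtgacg
Ndufb4: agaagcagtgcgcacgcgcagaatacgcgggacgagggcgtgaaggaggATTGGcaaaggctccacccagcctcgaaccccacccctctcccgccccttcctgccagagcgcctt
Ndufb7: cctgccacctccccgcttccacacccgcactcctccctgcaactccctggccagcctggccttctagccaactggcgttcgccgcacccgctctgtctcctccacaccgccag

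In the 250 bases before RefSeq starts, 34 nuclear subunits were matched. A CCAAT box was found on either strand before 10 of them, and in 33.85% of all 32851 promoters of that length. The NRF1 motif GCATGCG was found before 3 (3.02% of all), the ETS site CCGGAAG before 3 (6.91%) and AAGGTCA before 3 (4.08%). The search was repeated, with this result known, before the outermost GENCODE start of each gene, and the subunits that held a motif differed. The NRF1 motif was again before 3 subunits, but 1, Ndufa6, held it under both starts, whereas 8 held a CCAAT box under both. These are matches of letters, with no measurement of binding.

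In a fit over all 37 libraries with batch as a term, 27 of the 44 subunits differed between DAT;NuTRAP and VGAT;NuTRAP (edgeR quasi-likelihood test, adjusted p below 0.05). 25 were higher and 2 lower in dopamine neurons. Of all 16898 genes tested, 60.5% differed, 30.0% higher and 30.4% lower. The nuclear subunits had a median log2 difference of 0.23 (20 of 38 higher, 2 lower) and the mitochondrially encoded ones 1.34 (5 of 6 higher), against 0.01 over all genes. Genes with transcripts under 1000 bp, a class that holds 23 of the 38 nuclear subunits, had a median of 0.38. The nuclear result, however, took a different sign in the 2 batches, as follows.

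**Figure D1:**
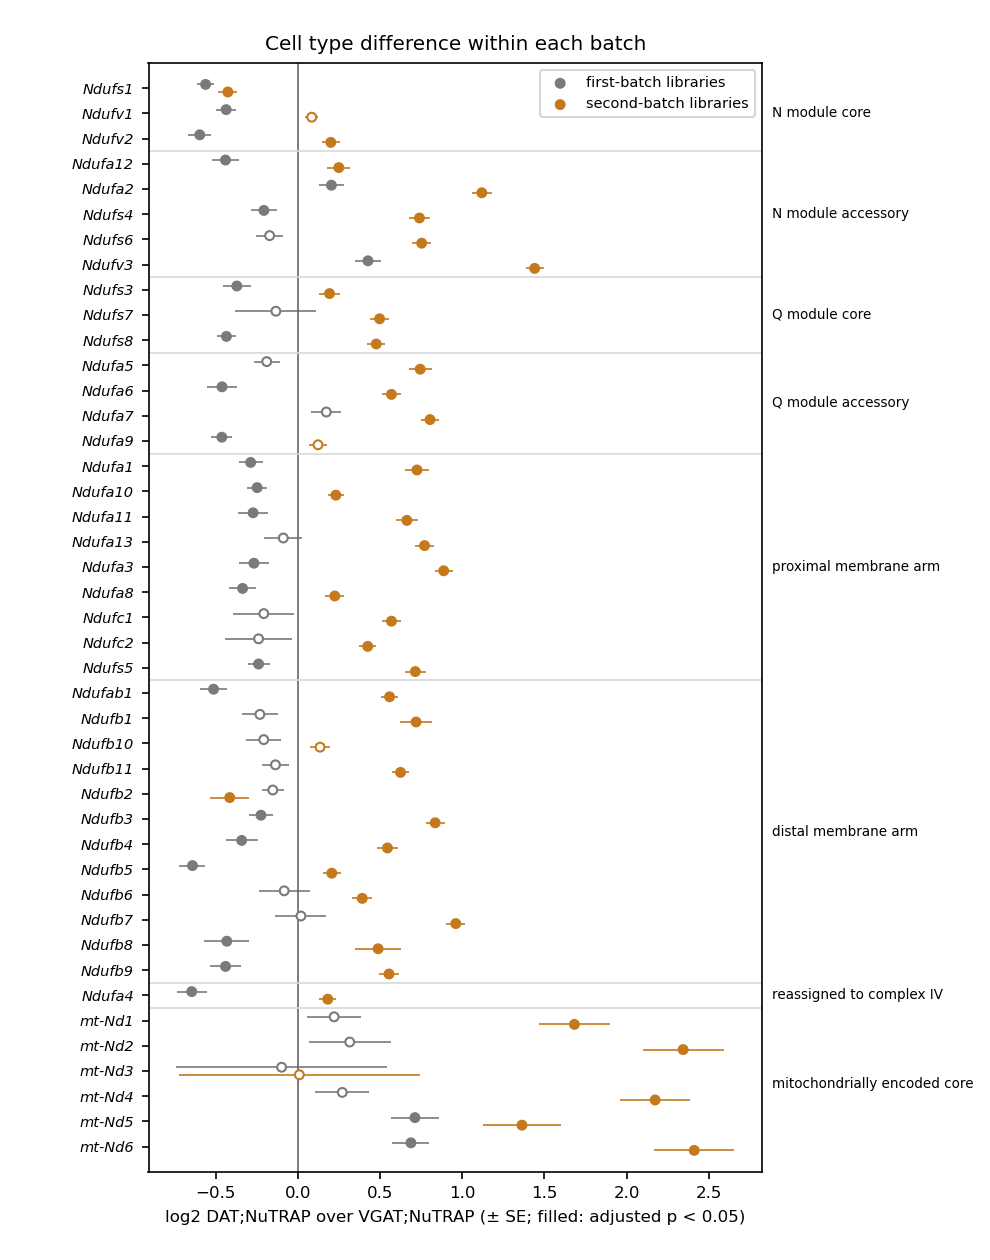
Log2 difference of DAT;NuTRAP over VGAT;NuTRAP for 43 subunits, ± SE, in first-batch libraries (grey) and second-batch libraries (orange), fitted separately; filled points have an adjusted p below 0.05. Most nuclear subunits lie left of 0 in the first batch (median -0.26) and right of 0 in the second (median 0.55).

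In first-batch libraries alone, 23 of 38 nuclear subunits were lower in DAT;NuTRAP and 2 were higher, with a median of -0.26. Of all 16713 genes tested there, 22.4% were lower and 21.5% higher. In second-batch libraries alone, 33 were higher and 2 lower, with a median of 0.55, where 26.4% of 17276 genes were higher and 30.3% lower. 20 nuclear subunits passed the test in both batches in opposite directions, lower in the first and higher in the second, as did 1.3% of all genes tested in both. By direction alone this held for 32 of 38, against 12.8% of all genes.

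The test of the difference between batches itself passed for 40 subunits, 36 nuclear and 4 mitochondrially encoded, all toward a higher value in the second batch; 29.1% of all genes passed, 12.7% in that direction. This contrast was chosen after the data were seen. Within DAT;NuTRAP, second-batch libraries had higher levels of 35 nuclear subunits (17.3% of all genes) and within VGAT;NuTRAP lower levels of 16 (6.08%). Ndufs1, Ndufb2, mt-Nd3 and mt-Nd5 did not pass the test of the batch difference.

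Other measures moved with the batch. Second-batch DAT;NuTRAP libraries detected 14323 to 18170 genes, against 19085 to 21051 in the first. Genes with transcripts under 1000 bp took 4.28 to 5.54% of their counts, against 3.09 to 3.80%, and the summed oligodendrocyte markers stood at 1103 to 2272 CPM, against 503 to 755. Summed astrocyte markers stood at 1270 to 2248 and 869 to 1727 CPM. In VGAT;NuTRAP libraries of both batches the oligodendrocyte sum was 247 to 979 and the astrocyte sum 891 to 1421. Aldoc, with a mean of 461 CPM in DAT;NuTRAP and 676 in VGAT;NuTRAP, made up much of the astrocyte sum. All other astrocyte markers averaged higher in DAT;NuTRAP, such as Slc1a2 (624 against 234 CPM) and Gfap (107 against 39.3). In VGAT;NuTRAP, short transcripts took 3.08 to 3.34% in the first and 2.83 to 3.21% in the second batch. The part of these measures in the subunit differences was not tested.

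**Figure D2:**
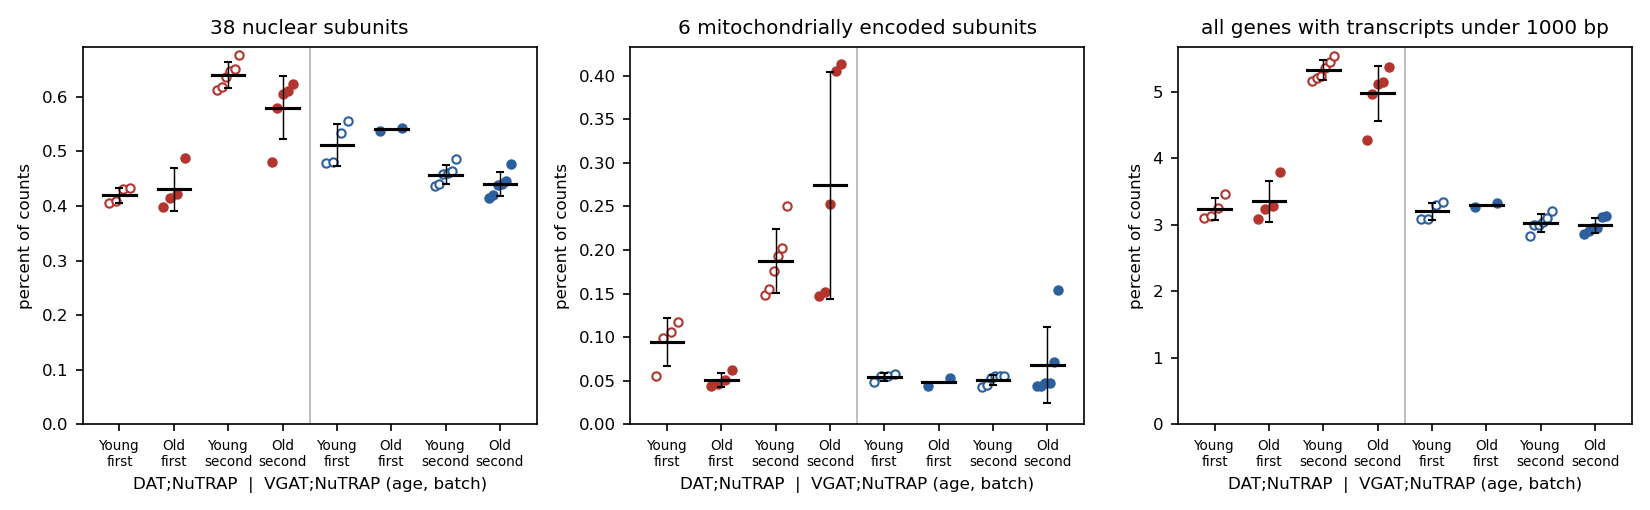
Share of all counts taken by the 38 nuclear subunits, the 6 mitochondrially encoded subunits and all genes with transcripts under 1000 bp in each library, by model, batch and age (open, young; filled, old; line, mean; bar, SD where there are over 2 libraries). Nuclear subunits took 0.398 to 0.487% in first-batch and 0.480 to 0.677% in second-batch DAT;NuTRAP libraries, and 0.479 to 0.556% and 0.415 to 0.485% in VGAT;NuTRAP.

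Among N module core subunits, Ndufs1, the large iron-sulfur subunit (GRCm39 chr1:63182058-63216236, minus strand, 19 exons), was the single subunit that passed the test as lower in dopamine neurons in both batches. The lowest, median and highest levels were 166, 193 and 208 CPM in first-batch DAT;NuTRAP libraries and 129, 166 and 195 in second-batch ones. In VGAT;NuTRAP they were 267, 286 and 301, then 202, 217 and 254, so that within each batch no library of one model reached the other. The log2 difference was -0.46 ± 0.05 over all libraries (edgeR, SE, adjusted p below 0.05), -0.56 in the first and -0.43 in the second batch. Exons of Ndufs1 overlap Eef1b2 on the opposite strand (181 CPM on average), and whether counting used strand is not stated.

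The other N module core subunits carry NADH oxidation. Ndufv1, which binds NADH and flavin, had levels of 221, 242 and 274 CPM (lowest, median, highest) in first-batch and 245, 272 and 293 in second-batch DAT;NuTRAP, and 308, 314 and 404, then 228, 256 and 275 in VGAT;NuTRAP. It was lower by the test in the first batch (-0.44 ± 0.06) and gave 0.08 ± 0.04 in the second, where it did not pass. Ndufv2, an iron-sulfur subunit, went from -0.60 ± 0.07 to 0.20 ± 0.05, passing in both.

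N module accessory subunits help to join the module to the rest of the enzyme. In the fit over all libraries 4 of 5 were higher in dopamine neurons (30.0% of all genes were), with a median of 0.44. In the first batch 2 were higher and 2 lower (median -0.17), and in the second all 5 were higher (median 0.75). The shares over all genes were 21.5% higher and 22.4% lower in the first batch, and 26.4% higher in the second. Ndufv3, an accessory subunit near Ndufv1 and Ndufv2 (GRCm39 chr17:31739052-31751735, plus strand, 4 exons), had levels of 102, 114 and 137 CPM in first-batch and 187, 214 and 248 in second-batch DAT;NuTRAP. In VGAT;NuTRAP they were 75.3, 85.6 and 105, then 72.0, 80.1 and 92.1. The models overlapped slightly in the first batch and not in the second. The log2 difference was 1.09 ± 0.09 (edgeR, adjusted p = 4.57e-13), with 0.43 ± 0.08 and 1.44 ± 0.05 in the batches, both passing. Ndufa2, a subunit with a thioredoxin-like fold, gave 0.81 ± 0.09 and also passed in both (0.20 ± 0.07 and 1.12 ± 0.06). Of all genes, 14.0% were higher in both batches and 16.3% lower in both. Besides these subunits, mt-Nd5 and mt-Nd6 were higher in both.

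Q module core subunits were lower in DAT;NuTRAP by the test in 3 of 4 cases in the first batch and higher in 4 of 4 in the second. Of all genes, 22.4% were lower in the first batch and 26.4% higher in the second. Ndufs8, an iron-sulfur subunit, had levels of 79.7, 92.9 and 114, then 115, 148 and 172 in DAT;NuTRAP against 116, 129 and 134, then 93.3, 106 and 116 in VGAT;NuTRAP. Its log2 difference went from -0.44 ± 0.06 to 0.48 ± 0.06. Among Q module accessory subunits, Ndufa9 had -0.46 ± 0.06 and 0.12 ± 0.06, the second not passing, and Ndufa7 had 0.17 ± 0.09, not passing, and 0.80 ± 0.06.

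Of 9 proximal membrane arm subunits, 6 were lower in the first batch and 9 higher in the second; Ndufa3 moved from -0.27 ± 0.09 to 0.89 ± 0.05. Among 12 distal ones, 6 were lower in the first, and 10 higher and 1 lower in the second. The shares over all genes were 22.4% lower in the first batch, and 26.4% higher and 30.3% lower in the second. Ndufb5, an accessory subunit, had levels of 82.3, 94.5 and 110 CPM, then 120, 153 and 168 in DAT;NuTRAP, against 129, 153 and 176, then 114, 127 and 143 in VGAT;NuTRAP. It was therefore below all VGAT;NuTRAP libraries in the first batch (-0.64 ± 0.08) and overlapped them in the second (0.21 ± 0.06). Ndufab1, the mitochondrial acyl carrier protein, had 39.0, 46.5 and 53.8 CPM, then 91.3, 104 and 126 in DAT;NuTRAP, and 62.6, 68.8 and 77.2, then 63.0, 72.4 and 79.9 in VGAT;NuTRAP. Its DAT;NuTRAP level in the second batch was above every VGAT;NuTRAP library, and in the first below every one. Ndufb2 was below 0 in both batches, at -0.15 ± 0.07 in the first, not passing, and -0.42 ± 0.12 in the second, where it was lower by the test and DAT;NuTRAP libraries spread from 14.2 to 50.6 CPM; its exons overlap Braf on the opposite strand (96.3 CPM). Ndufa4, reassigned to complex IV but included in the 38 nuclear subunits, went from -0.65 ± 0.09 to 0.18 ± 0.05.

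**Figure D3:**
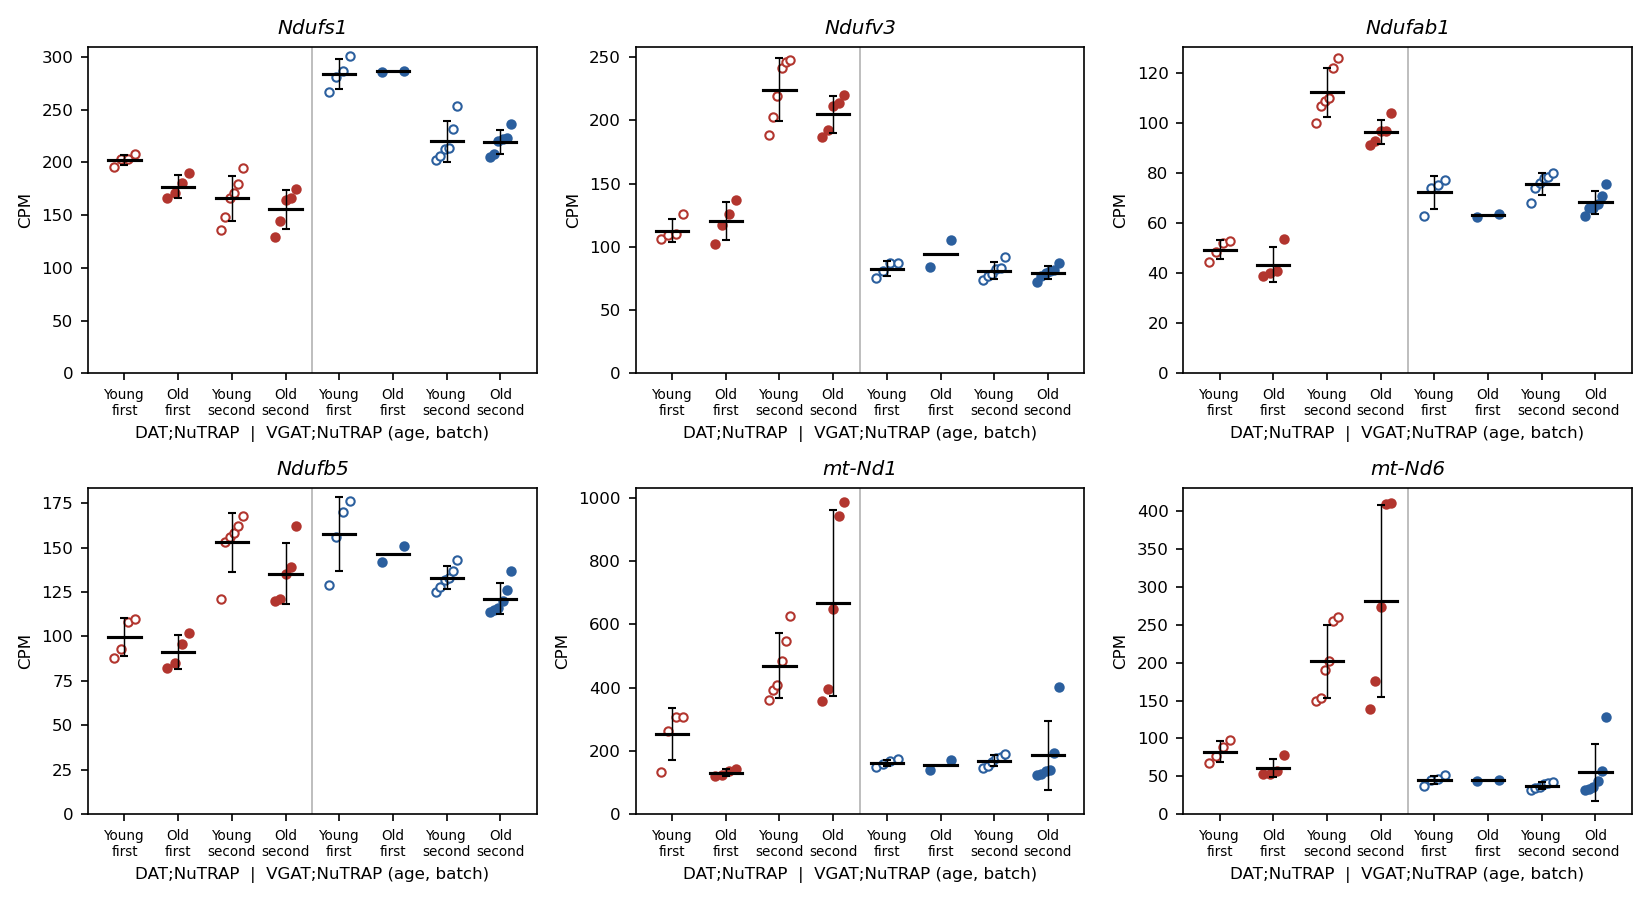
CPM of 4 nuclear and 2 mitochondrially encoded subunits in each library, by model, batch and age (open, young; filled, old; line, mean; bar, SD where there are over 2 libraries). Ndufs1 is higher in VGAT;NuTRAP in both batches, Ndufab1 is above VGAT;NuTRAP in the second batch alone, and mt-Nd1 is widest in old second-batch DAT;NuTRAP libraries (359 to 985 CPM).

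The mitochondrially encoded subunits had the widest spread. mt-Nd1 stood at 121, 140 and 308 CPM (lowest, median, highest) in first-batch DAT;NuTRAP libraries and 359, 484 and 985 in second-batch ones, against 141, 164 and 173, then 123, 159 and 401 in VGAT;NuTRAP. mt-Nd6, encoded on the opposite strand to the others, had 53.3, 72.1 and 97.9, then 139, 202 and 411, against 37.8, 45.0 and 51.5, then 31.6, 38.0 and 129. It overlaps the end of mt-Nd5 by 14 bases at chrM:13552-13565, shown on the plus strand.
mt-Nd5 and mt-Nd6 overlap: ttaatctcgagtaa

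In first-batch libraries 2 of the 6 were higher in DAT;NuTRAP, mt-Nd5 (0.71 ± 0.14) and mt-Nd6 (0.69 ± 0.11), and in second-batch libraries 5 were, with a median of 1.93. Of all genes, 21.5% were higher in the first batch and 26.4% in the second. Over all libraries mt-Nd6 gave 1.77 ± 0.23, mt-Nd2 1.62 ± 0.28, mt-Nd4 1.50 ± 0.25, mt-Nd1 1.17 ± 0.21 and mt-Nd5 1.12 ± 0.18. mt-Nd3, at a median of 0.293 to 0.474 CPM in the 4 model and batch groups, gave 0.02 ± 0.46 and did not pass.

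Set against each other within a library, mitochondrially encoded counts over nuclear counts had a log2 ratio of -2.00 ± 0.80 (SD, n = 19) in DAT;NuTRAP and -3.12 ± 0.46 (n = 18) in VGAT;NuTRAP. In DAT;NuTRAP the mean was -3.09 in old and -2.21 in young first-batch libraries, and -1.22 in old and -1.80 in young second-batch libraries. The order of old and young was thus opposite in the 2 batches. In VGAT;NuTRAP the highest ratio, -1.52, belonged to Old Male 2, and that library also held the highest oligodendrocyte marker sum of its model.

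**Figure D4:**
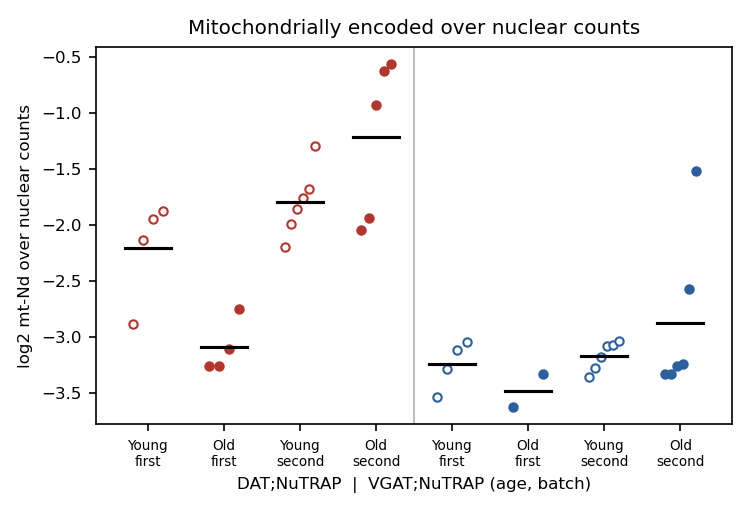
Log2 ratio of summed mitochondrially encoded to summed nuclear complex I counts in each library, by model, batch and age (open, young; filled, old; line, mean). DAT;NuTRAP libraries run from -3.26 to -0.56 and VGAT;NuTRAP libraries from -3.62 to -1.52.

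For age, no subunit passed the edgeR test in any comparison of genes kept by the filter on low counts. Without that filter, 5 passed in VGAT;NuTRAP males, as given with the sexes. In DAT;NuTRAP, 0 of 43 tested subunits passed (0.00672% of all genes did), 4 had an unadjusted p below 0.05 (5.28% of all genes), and DESeq2 and limma-voom called 0. In VGAT;NuTRAP, 0 of 44 passed (0.0256% of genes), with 3 at an unadjusted p below 0.05 (5.98% of genes) and again 0 by DESeq2 and limma-voom.

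The smallest p in both models belonged to Ndufab1. In DAT;NuTRAP it stood at 44.6, 104 and 126 CPM (lowest, median, highest) in young and 39.0, 91.3 and 104 in old libraries, and in VGAT;NuTRAP at 62.8, 75.7 and 79.9 against 62.6, 66.1 and 75.8. Old and young overlapped in both. The log2 difference was -0.21 ± 0.07 in DAT;NuTRAP (edgeR quasi-likelihood test, adjusted p = 0.884) and -0.15 ± 0.05 in VGAT;NuTRAP (adjusted p = 0.683). Next in DAT;NuTRAP were Ndufa9 at -0.17 ± 0.07, Ndufb4 at -0.21 ± 0.09 and Ndufb5 at -0.16 ± 0.07, and in VGAT;NuTRAP Ndufb2 at -0.12 ± 0.05 and Ndufb5 at -0.11 ± 0.05, none of which passed.

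The nuclear median was -0.07 in DAT;NuTRAP (30 of 38 below 0, against 49.2% of all genes) and -0.03 in VGAT;NuTRAP (27 of 38, against 50.4%). Of genes with transcripts under 1000 bp, 578 of 1020 lay below 0 in DAT;NuTRAP and 627 of 1182 in VGAT;NuTRAP. By batch, the nuclear median in DAT;NuTRAP was 0.06 in the first (16 of 38 below 0) and -0.13 in the second (36 of 38), and in VGAT;NuTRAP 0.07 (12 of 38) and -0.07 (35 of 38), where 49.2 to 51.6% of all genes lay below 0. Old and young libraries numbered 4 and 4 in the first batch of DAT;NuTRAP and 5 and 6 in the second. In VGAT;NuTRAP they numbered 2 and 4, then 6 and 6. Among the 2 old first-batch VGAT;NuTRAP mice was the mouse aged 24 months. The mitochondrially encoded subunits lay above 0 in VGAT;NuTRAP (6 of 6, median 0.31), with 5 of 6 below 0 in the first batch (-0.07) and 6 of 6 above in the second (0.45). In DAT;NuTRAP 3 of 5 tested lay below 0 (median -0.08), with 5 of 5 below in the first batch (-0.95) and 6 of 6 above in the second (0.51). None passed in either batch of either model by edgeR, while 9 of 43 and 11 of 44 subunits in DAT;NuTRAP and 3 and 6 of 44 in VGAT;NuTRAP had an unadjusted p below 0.05. Of all genes, 11.4% and 5.79% did in DAT;NuTRAP and 4.09% and 10.8% in VGAT;NuTRAP. After adjustment, 0.027% and 0.00652% of all genes passed in the first and second batch of DAT;NuTRAP, and 0.0% and 0.333% in VGAT;NuTRAP. A test of the difference in age effect between batches, chosen after the data were seen, also called no subunit in either model (0.0% of genes in both). The unadjusted p was below 0.05 for 14 of 43 subunits in DAT;NuTRAP (7.72% of all genes) and 8 of 44 in VGAT;NuTRAP (8.5%). In DAT;NuTRAP mt-Nd4 had the second-minus-first difference 1.73 ± 0.43 (adjusted p = 0.304).

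**Figure D5:**
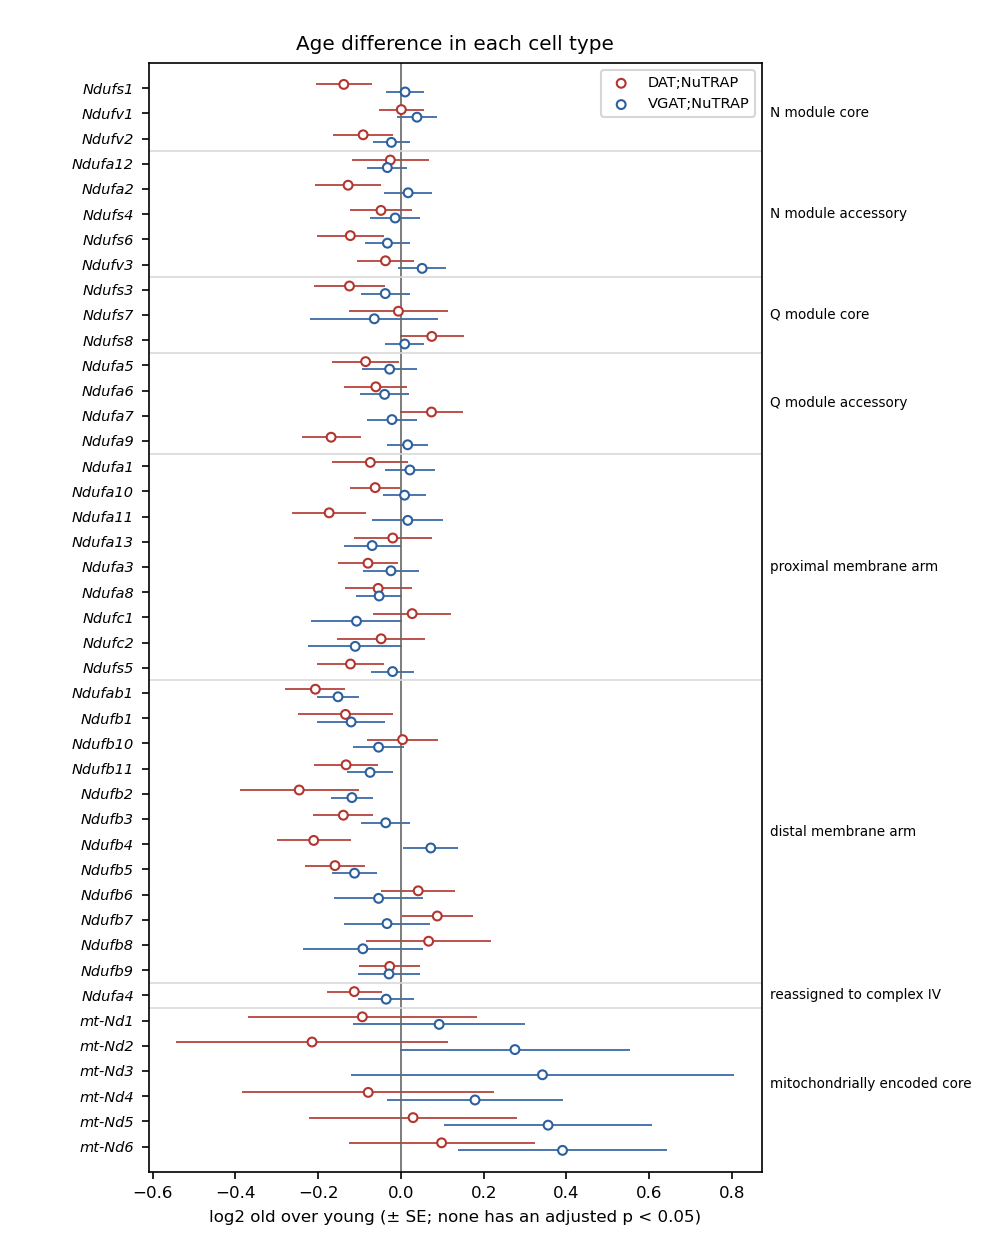
Log2 old over young for 43 subunits, ± SE, in DAT;NuTRAP (red) and VGAT;NuTRAP (blue), fitted with batch as a term; mt-Nd3 was not tested in DAT;NuTRAP. All points are open because none passed. The mitochondrially encoded subunits have the widest errors.

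By sex, 0 subunits passed in DAT;NuTRAP females (0.0% of genes; 8 with an unadjusted p below 0.05), DAT;NuTRAP males (0.0%; 2), VGAT;NuTRAP females (0.032%; 4) and VGAT;NuTRAP males (0.0315%; 0), by edgeR, and 0 by DESeq2 and limma-voom. Of all genes, 4.05%, 5.5%, 5.59% and 5.12% had an unadjusted p below 0.05 in these 4 comparisons. The nuclear medians were -0.12, -0.07, -0.05 and 0.04. In VGAT;NuTRAP males the mitochondrially encoded median was 0.70, but without Old Male 2, where mt-Nd1 reached 401 CPM, it was -0.21. With no filter on low counts, mt-Nd1, mt-Nd2, mt-Nd4, mt-Nd5 and mt-Nd6 passed as higher in old VGAT;NuTRAP males by edgeR (0.50 to 0.85), where 0.621% of all 24643 genes passed in either direction. The difference in age effect between males and females did not pass for any subunit in DAT;NuTRAP or VGAT;NuTRAP (0.0% of genes in both). The unadjusted p was below 0.05 for 2 subunits in DAT;NuTRAP (4.25% of all genes) and 0 in VGAT;NuTRAP (5.09%). The difference in age effect between the models did not pass for any subunit either (0.0% of genes). An unadjusted p below 0.05 was found for 0 subunits and 2.76% of all genes. DESeq2 and limma-voom called 0 in all 3 comparisons. The fit of the difference between the models gave both the same batch term, though their batch differences ran in opposite directions. Its SE for Ndufab1 was 0.19, against 0.07 and 0.05 in DAT;NuTRAP and VGAT;NuTRAP fitted alone. With batch nested in model, no gene passed. A lack of calls here does not show that the models age alike.

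In the rest of the respiratory chain, the test of the difference between batches passed toward a higher value in the second batch for 3 of 4 complex II subunits, 7 of 9 of complex III, 11 of 11 of complex IV and 15 of 15 of complex V, against 12.7% of all genes. The medians of that difference were 0.50, 0.76, 0.78 and 0.80, against -0.03 over all genes and 0.52 over genes with transcripts under 1000 bp. The cell type medians in first and second batch were -0.28 and 0.22 for complex II, -0.38 and 0.38 for complex III, -0.42 and 0.46 for complex IV and -0.36 and 0.56 for complex V. Sdha, the flavoprotein of complex II, was lower by the test in both batches (-0.37 ± 0.05 and -0.46 ± 0.04), as were Uqcrc2 of complex III and Atp5f1a and Atp5f1b of complex V; these 4 were chosen after their values were seen. For 18 assembly factors of complex I the medians were -0.22 and 0.10. Over all libraries 5 of them were higher and 6 lower, 11 of 18 in all, a share near the 60.5% of all genes. Dmac1 (0.78 ± 0.09) and Ndufaf8 (1.20 ± 0.16) were higher, and Ndufaf4 (-0.39 ± 0.06) lower. In the first and second batch Dmac1 gave 0.48 ± 0.15 and 0.93 ± 0.09, and Ndufaf4 -0.49 ± 0.07 and -0.36 ± 0.09. Ndufaf8 gave 1.44 ± 0.14 in the second batch, and its first-batch value is not given here. Of 10 regulators of respiratory genes, 5 were lower in dopamine neurons (30.4% of all genes were) and 0 higher, and their medians were -0.50 in the first and -0.58 in the second batch. Ppargc1a, a coactivator of mitochondrial gene programmes, gave -1.97 ± 0.07, Tfam, which packages mitochondrial DNA, -0.80 ± 0.07, and Polg, its polymerase, -0.68 ± 0.07 (edgeR, each with an adjusted p below 0.05).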

How the data were processed

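Midbrain RNA bound to GFP-tagged ribosomes was captured by poly-A selection and sequenced as directional paired-end libraries. Per the submitters' processing notes, STAR 2.7.10b placed the reads on mm39 (GRCm39) and featureCounts made the gene counts; the latter's version, annotation and strand setting are not given in the sources used here. The deposited tables hold raw counts per gene, unscaled; the authors' later removal of low counts and glial genes and their batch correction came after the tables. Input fractions were not used here.

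Genes were kept by filterByExpr (minimum count 10) and the whole table was fitted with edgeR 4.0.16 (R 4.3.3), using a robust quasi-likelihood model with a batch term, normalization by TMM, and Benjamini-Hochberg adjustment over all genes tested. A subunit passed at an adjusted p below 0.05. CPM are counts scaled with TMM factors, and levels per kilobase use the median protein-coding transcript length of GENCODE vM39, which held 56620 of the 57180 identifiers. Groups came from the labels (model, age, sex, batch). Counts of 70 pairs of libraries within a group differed by more than sampling noise (lowest chi-square per degree of freedom 5.38). Scripts were tested on simulated data with known changes.

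The subunits and gene lists were chosen with earlier results of these data known. Every subunit could be named, but 1 is not reported here, though the counts and medians include it; values per group were given for core subunits, mt-Nd genes and up to 4 in each direction with the smallest p. Shares and ratios over the subunits carry no test. Tests of batch differences were chosen after seeing the data. Alternatives were DESeq2 1.42.0, limma-voom (limma 3.58.1), RLE factors, other count filters, no or nested batch term, sex as a term, a replicate block, single batches, no mt rows, no Ndufa4, and each library left out.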

Additional observations from a re-analysis of the deposited data

Results flagged for a closer look

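The cell type difference was not the same in the 2 batches for 40 of the 44 subunits (edgeR test of the difference between batches, chosen after the data were seen).

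Of 252 groups of 4 to 6 libraries and measures examined, 22 held a library far from the others by Dixon's criterion. By chance about 1 in 20 would. Many of these libraries are the single first-batch library of their group. VGAT;NuTRAP Old Female 1 was also the only mouse aged 24 months, so its batch and its age cannot be told apart. In VGAT;NuTRAP, Old Female 1 was the highest of 5 in the share of nuclear subunits (0.538%, next 0.446%), Ndufa9 (218 CPM), Ndufb6 (105), Ndufs1 (287), Ndufs3 (119), Ndufs7 (169), Ndufv1 (333) and Ndufv2 (343). In DAT;NuTRAP, Old Female 1 was the lowest of 4 in that share (0.414%, next 0.580%), Ndufab1 (39.0 CPM, next 96.9) and Ndufc2 (91.8 CPM, next 164).

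Among mitochondrially encoded values, DAT;NuTRAP Old Female 2 had mt-Nd5 at 635 CPM (next 233). VGAT;NuTRAP Old Female 5 had the highest log2 ratio of mitochondrially encoded to nuclear counts in its group, -2.57, and mt-Nd5 at 176 CPM. VGAT;NuTRAP Young Female 2 had the lowest mitochondrially encoded share, 0.048%, and the lowest mt-Nd5, 104 CPM.

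The remaining values stood alone. In VGAT;NuTRAP, Young Female 3 was lowest in Ndufab1 (62.8 CPM), Young Female 1 highest in Ndufb8 (19.9 CPM), and Young Male 1 lowest in Ndufb7 (63.4 CPM) and Ndufs7 (60.1 CPM). In DAT;NuTRAP, Old Male 1 was highest in Ndufs3 (114 CPM) and Old Male 4 in Ndufs8 (154 CPM).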

How the results depend on the processing

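The cell type medians depended on the batch used. The nuclear median was -0.26 in first-batch and 0.55 in second-batch libraries alone, against 0.23 in all libraries, and the mitochondrially encoded median 0.29 in the first batch, against 1.34. Of the subunits higher over all libraries, 16 had a negative difference in the first batch alone: Ndufa1 (-0.29), Ndufa3 (-0.27), Ndufa5 (-0.19), Ndufa11 (-0.27), Ndufa13 (-0.089), Ndufb1 (-0.23), Ndufb3 (-0.23), Ndufb4 (-0.34), Ndufb6 (-0.084), Ndufb9 (-0.44), Ndufb11 (-0.14), Ndufc1 (-0.21), Ndufs4 (-0.21), Ndufs5 (-0.24), Ndufs6 (-0.17) and Ndufs7 (-0.13); 8 of them were lower there by the test. The count of subunits differing between cell types was 24 to 32 under alternatives that kept all libraries and genes. With no count filter, 5 mitochondrially encoded subunits passed in old against young VGAT;NuTRAP males, where none passed in the other settings; the cause was not tested. Counts over all genes varied for age: 4 genes passed in VGAT;NuTRAP, but 23 by DESeq2, 7 with a replicate block and 52 in the second batch alone. In VGAT;NuTRAP males 5 passed, but 19 by DESeq2 and 153 with no count filter, and in VGAT;NuTRAP females 5, but 23, 30 and, in the second batch alone, 101. In DAT;NuTRAP 1 passed, but 12 by DESeq2. By DESeq2 and with no count filter, 31 and 23 passed in DAT;NuTRAP females, 7 and 4 in DAT;NuTRAP males and 13 and 33 for age by sex in DAT;NuTRAP, where 0 passed by edgeR with the filter. In first-batch VGAT;NuTRAP libraries the mitochondrially encoded median of the age by sex difference was -0.26, against 0.84. Old females, old males and young males were each a single library there, so this value has no spread to be judged by in those groups. Leaving out each library in turn gave 25 to 30 subunits differing between cell types, a mitochondrially encoded age median of -0.21 to 1.23 in VGAT;NuTRAP males, and one of -0.016 to 1.12 for age by sex (both lowest without Old Male 2). Replicate numbers do not pair the mice: correlations of same-numbered libraries ran from -0.171 to 0.101 once batch was removed. With a replicate block, 26 subunits differed between cell types, 0 passed for age, and no count of subunits that passed moved by over 1.5 times. The block did move mitochondrially encoded age medians, from 0.01 to -0.56 in DAT;NuTRAP females, from 0.70 to 0.32 in VGAT;NuTRAP males and from 0.14 to 0.60 for age by sex in DAT;NuTRAP, each by less than the spread between libraries. The low counts of mt-Nd3 limit what can be said of it: a difference was not detectable at this depth.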
